A study of Mus musculus with 2 samples.

Results

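The Bcl2-family genes described here are a hand-picked list of 9 mouse genes that set the threshold for cell death in T cells. Of these, 7 were matched in the deposited table of 12432 genes: the pro-survival members Bcl2a1b, Mcl1, Bcl2l1 and Bcl2, and the pro-death members Bcl2l11, Bax and Bid. Bcl2a1d and Bak1 were not analysed here. Bcl2a1b was chosen by its measured level, which was lower in cells with Klf2 than in cells without, so the Klf2 contrast is given below as a description with no test. The other members were listed as genes of the same family. The values are from 178 single CD4 T cells of C57BL/6 mice, sorted for binding of the 2W1S model antigen and taken from spleen and peripheral lymph nodes. All mice carried the CA-2W1S colonization, a recombinant Candida albicans strain that makes 2W1S, and no uncolonized group was analysed here. Cells were captured on a Fluidigm C1 instrument and amplified with SMART-Seq v4 chemistry, which reads whole transcripts without molecular identifiers. An April capture gave 96 cells, from runs named Apr13 (48 cells) and Apr21 (48 cells), and a March capture gave 82 cells, from runs Mar1 (25 cells) and Mar17 (57 cells). The captures are the 2 replicates of 1 group. The labels do not say how many mice were pooled, so the p-values below rest only on spread between 2 captures, which may be technical. That spread is pooled over genes by limma, in some fits wholly, so a p-value need not reflect a gene's own spread.

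The BCL2 family controls the mitochondrial route of cell death. BAX and BAK make the outer mitochondrial membrane permeable, which releases cytochrome c and starts the caspases; BCL2, BCL-XL, MCL1 and A1 hold them back, and BH3-only proteins such as BIM and BID relieve that block. In T cells interleukin-7 signalling is known to maintain BCL2, antigen receptor and NF-kappaB signalling to induce A1, and BIM to remove activated cells once a response ends.

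Each value is the deposited log2 number, taken as a log2-transformed, TPM-like abundance with a pseudocount of 1; the linear value is the abundance obtained by reversing that step. A gene is called present in a cell at a linear value of at least 1, because 36.6% of all values above 0 in the table lay below 1. The table holds no counts, so the depth behind a value is unknown, and the exact 95% intervals of shares cover counting error over cells only. Median genes above 0 per cell were 4933.5 in April and 5344 in March. The 5 fixed CD4 T cell markers were present in 70.8% (Cd4) to 100% (Cd3d) of cells. Of markers of other cells, Cd8b1 was present in 19.7%, the myeloid gene Itgam in 40.4% and the B cell gene Ebf1 in 88.8% of cells, Ebf1 with a mean linear value of 2.84 in April and 20.9 in March. These were the highest of their lists. The lowest were Cd8a at 6.74%, the myeloid gene Csf1r at 2.81% and the B cell gene Pax5 at 14.0%. The natural killer cell gene Klrb1c was at 4.49%. Only 2 of 6 B cell and 3 of 7 myeloid markers were matched. Mitochondrial genes took over 50% of the signal in 3 cells, all from Mar1.

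A1 is encoded in mice by near-identical gene copies on chromosome 9, and the row called Bcl2a1b stands for 1 of them. The first 120 coding bases of Bcl2a1b and of 2 other copies are shown because they bear on how that row can be read. Letters come from the GENCODE vM21 transcripts on mm10, written 5′ to 3′ on the coding strand, and capitals mark the 7 positions at which any of the 3 copies differs.
Bcl2a1b: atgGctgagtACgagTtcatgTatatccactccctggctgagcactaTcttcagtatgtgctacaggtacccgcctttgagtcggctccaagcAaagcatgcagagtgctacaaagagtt
Bcl2a1d: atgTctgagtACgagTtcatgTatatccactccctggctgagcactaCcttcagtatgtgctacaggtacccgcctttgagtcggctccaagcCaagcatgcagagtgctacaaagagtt
Bcl2a1a: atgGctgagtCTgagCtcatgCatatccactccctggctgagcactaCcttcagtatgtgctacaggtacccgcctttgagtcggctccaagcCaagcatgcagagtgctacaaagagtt

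Over the whole coding sequence of 516 bases, Bcl2a1b differs from Bcl2a1d at 6 positions (98.8% identical) and from Bcl2a1a at 11 positions (97.9% identical). Its longest run identical to either copy is 217 bases. The coding sequence of Bcl2a1b spans chr9:89199360-89207677 on the plus strand, that of Bcl2a1d chr9:88723437-88731719 on the minus strand and that of Bcl2a1a chr9:88957051-88962267 on the plus strand. The annotation also has a transcript unit, Gm29094, at chr9:89199379-89215471 on the same strand as Bcl2a1b and overlapping it; it was not analysed here. How reads shared by these genes were assigned is not given in the sources used here, so each Bcl2a1b value below may hold signal of Bcl2a1d, Bcl2a1a or Gm29094.

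Among the pro-survival members, Bcl2a1b had the highest mean level and was present in the largest share of cells. It was present in 53.1% of April cells (95% interval 42.7% to 63.4%) and in 35.4% of March cells (25.1% to 46.7%). By run the shares were 52.1% in Apr13, 54.2% in Apr21, 36.0% in Mar1 and 35.1% in Mar17, so runs of the same month lay close together and the 2 months stood apart, although their intervals overlap. Its distribution was close to on or off: of 84 cells with any Bcl2a1b, 80 had a linear value of at least 1 and 65 of at least 10. In cells where it was present the median linear value was 385 in April and 222 in March, and the highest cell reached 2457.

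Mcl1 encodes a short-lived pro-survival protein that T cells need throughout their life. It was present in 30.2% of April cells (21.3% to 40.4%) and 28% of March cells (18.7% to 39.1%), with 28% to 31.3% in the 4 runs. Unlike Bcl2a1b it had many low values. At any value above 0 it was the more widespread of both genes, in 65.6% of April and 56.1% of March cells, against 55.2% of April and 37.8% of March cells for Bcl2a1b. Its median in the cells where it was present was 43.7 in April and 14.4 in March.

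Bcl2l1 encodes BCL-XL, a pro-survival protein induced on T cell activation. It was present in 25% of April cells (16.7% to 34.9%) and 18.3% of March cells (10.6% to 28.4%), but mostly just above the threshold, with a median of 1.45 in April and 2.18 in March. A linear value of 10 was reached in 7 of the 178 cells, and the 5 highest cells held 97.3% of its summed signal. Its mean is therefore set by a handful of cells.

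At a linear value of 1, Bcl2 itself was the scarcest member. It was present in 6.25% of April cells (2.33% to 13.1%) and 13.4% of March cells (6.89% to 22.7%), 17 cells in all. Any Bcl2 value above 0 was found in 19.8% of April cells, against 47.6% of March cells. By that measure Bcl2 was not the scarcest, with 58 cells in all against 57 for Bcl2l1 and 46 for Bid. Because fewer than 10% of cells held it at 1 or more, Bcl2 did not enter any test.

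**Figure D1:**
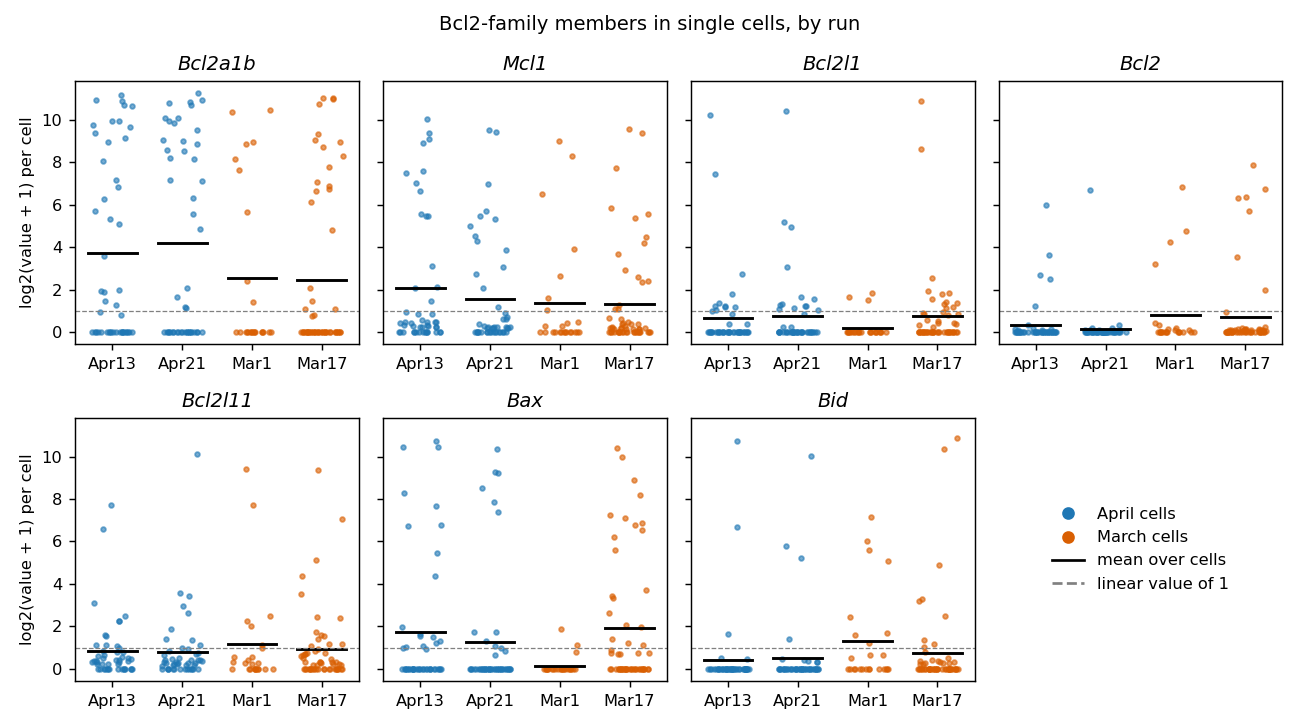
Level of each of the 7 members in every cell, as log2(value + 1), by run; points are cells, black bars means over the cells of a run, and the dashed line a linear value of 1. Bcl2a1b cells separate into a group at 0 and a group well above the dashed line. Bcl2l1 cells lie mostly at 0 and Bcl2l11 cells mostly at 0 or below the dashed line, with few cells of either far above it. Bax is nearly missing from Mar1.

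Of the pro-death members, Bax, an effector that permeabilizes the mitochondrion, was present in 28.1% of April cells (19.4% to 38.2%) and 26.8% of March cells (17.6% to 37.8%). The monthly shares were near equal, but the March runs differed. Bax was present in 2 of 25 Mar1 cells (8.0%, 0.984% to 26.0%) and in 20 of 57 Mar17 cells (35.1%, 22.9% to 48.9%), with mean linear values of 0.186 in Mar1 and 68.8 in Mar17. The April runs had 110 and 68.9, in Apr13 and Apr21. Bcl2l1 showed the same split, with mean linear values of 0.267 in Mar1 and 40.8 in Mar17, though 2 cells gave most of the Mar17 signal.

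Bcl2l11 encodes BIM, the BH3-only protein best known for killing activated T cells. It was present in 21.9% of April cells (14.1% to 31.5%) and 25.6% of March cells (16.6% to 36.4%), and at any value above 0 in 70.8% of April and 59.8% of March cells. Its median in cells where it was present was 3.82 in April and 3.81 in March, a low level that few cells exceeded: 11 of 178 reached 10. Bid, a BH3-only protein that is cut by caspase-8 and links death receptors to the mitochondrion, was present in 7.29% of April cells (2.98% to 14.4%) and 20.7% of March cells (12.6% to 31.1%). Its share was 6.25% in Apr13, 8.33% in Apr21, 32.0% in Mar1 and 15.8% in Mar17, so both March runs were above both April runs.

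**Figure D2:**
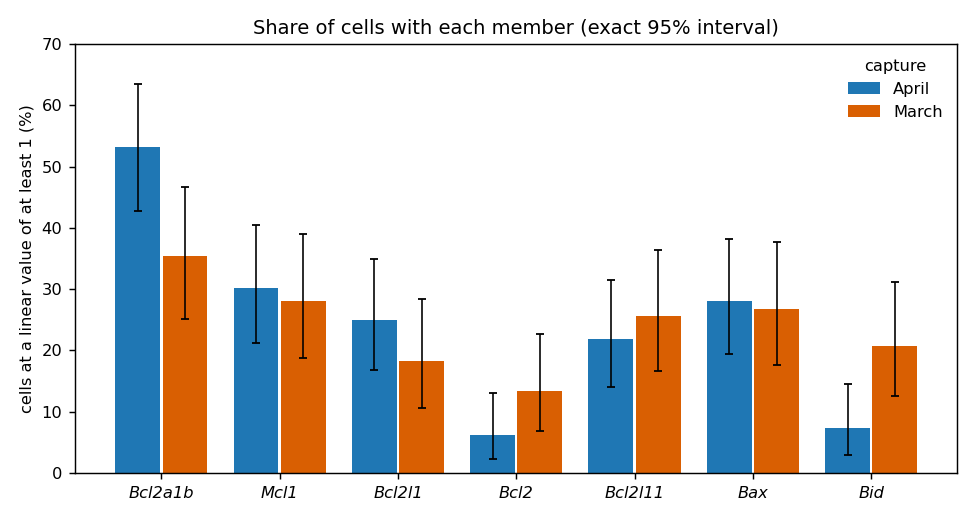
Share of cells in which each member was present, in percent, for the April (left bar) and March (right bar) captures; error bars are exact 95% intervals over cells. Bcl2a1b has the tallest bar in both captures, 53.1% in April and 35.4% in March, and Bcl2 the shortest in March and, with Bid, in April.

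For orientation, the median gene of the table was present in 16.9% of cells and had a mean linear value of 15.6. Ordered by mean linear value over the 2 captures, the members ran Bcl2a1b (267 ± 113, SD, n = 2 captures), Bax (68.8 ± 29.5), Mcl1 (44.5 ± 14.7), Bid (36.9 ± 8.86), Bcl2l1 (29.1 ± 0.834), Bcl2l11 (18.9 ± 4.36) and Bcl2 (5.48 ± 4.98). This order of levels between genes holds only if the deposited values are per transcript length, which is not stated in the sources used here. Bcl2a1b lay above 95.7% of all genes and led in both captures, at 347 in April and 186 in March. The neighbours Bax and Mcl1, and Mcl1 and Bid, did not differ beyond their spread between captures, and Bid and Bcl2l1 differed by less than the spread of Bid, while the other neighbouring pairs differed by more than either SD. An SD of 2 captures leaves out the spread between runs. Bcl2l1 was above Bcl2l11 in Apr13 (28.7 against 7.14), Apr21 (30.6 against 24.4) and Mar17 (40.8 against 15.6). In Mar1 the order was reversed (0.267 against 36.6), so the order of that pair is not settled. Bid and Bcl2l11 also owed most of their signal to a few cells, the 5 highest holding 93.7% and 87.3%, against 22.6% for Bcl2a1b.

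Cells differed in how many members they held. Of the 178 cells, 26 held no member at a linear value of 1, 63 held 1, 45 held 2, 27 held 3, 16 held 4 and 1 held 5. Members of both sides were present in 36.5% of April cells (26.9% to 46.9%) and 36.6% of March cells (26.2% to 48.0%). Only pro-survival members were present in 38.5% of April and 28% of March cells, and only pro-death members in 9.38% of April cells (4.38% to 17.1%) and 22.0% of March cells (13.6% to 32.5%). The last share varied by run, with 8 of 48 cells in Apr13, 1 of 48 in Apr21, 3 of 25 in Mar1 and 15 of 57 in Mar17. Over cells, the Spearman rho of the 21 pairs of members lay between -0.21 and 0.20. It was positive in both captures for 9 pairs, negative in both for 5 and of opposite sign for 7. Cells of a capture share their preparation, and these weak values in sparse data are given as a description.

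A per-cell balance was taken as the log2 of the summed linear values of the 4 pro-survival members plus 1, over those of the 3 pro-death members plus 1. The median was 2.17 in April cells (quartiles -0.18 and 6.84) and 0.36 in March cells (-1.35 and 4.15). By run the medians were 1.83 in Apr13, 2.42 in Apr21, 0.29 in Mar1 and 0.41 in Mar17, so both April runs stood above both March runs, with wide overlap of single cells. The pro-survival sum was more than 2-fold the pro-death sum in 56.3% of April and 45.1% of March cells, and the reverse held in 18.8% of April and 29.3% of March cells. Bcl2a1b made up 80.0% of the summed pro-survival signal in April and 72.3% in March, and was the highest member in 35 of 81 April and 16 of 71 March cells with any member. Without Bcl2a1b, the mean of the 2 capture medians was -0.04, against 1.27 with it. On the pro-death side Bax made up 65.9% in April and 42.4% in March, but in Mar1 Bcl2l11 made up 75.3% and Bax 0.383%.

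**Figure D3:**
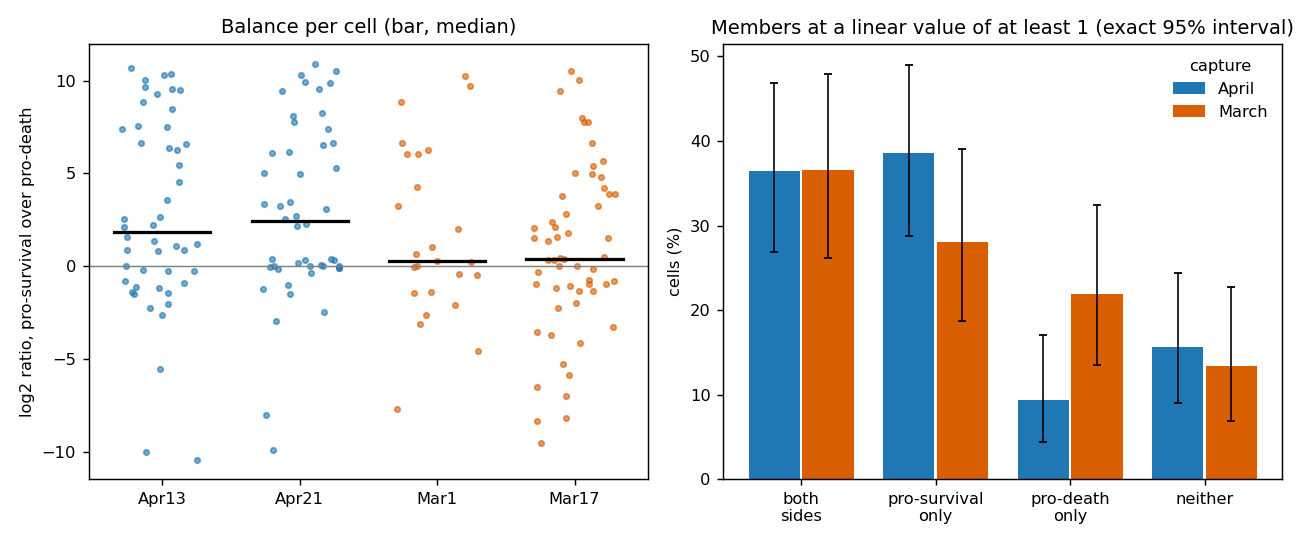
Left, the balance of pro-survival over pro-death members in each cell (log2 ratio; bar, median) by run. Right, the share of cells of each capture, in percent with exact 95% intervals, in which members of both sides, of 1 side or of neither were present; pro-death members alone were found in 9.38% of April and 22.0% of March cells.

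Cells were next divided by the presence of Cxcr5, the chemokine receptor of follicular helper T cells, and the mean log2 values of the classes were compared within each capture. Bcl2a1b was the member with the largest difference. In Cxcr5-positive cells it averaged 4.85 in April (40 cells) and 4.49 in March (20 cells), against 3.34 in April (56 cells) and 1.86 in March (62 cells) for Cxcr5-negative cells. The share of cells with Bcl2a1b was 60.0% of Cxcr5-positive and 48.2% of Cxcr5-negative cells in April, and 60.0% of Cxcr5-positive and 27.4% of Cxcr5-negative cells in March. The difference was 1.37 in Apr13, 1.77 in Apr21, 5.19 in Mar1 and 1.21 in Mar17, so Bcl2a1b was higher with Cxcr5 in 4 of 4 runs, most in the small Mar1 run. Over both captures it was 2.07 ± 0.53 (SE; 95% interval 1.03 to 3.12), which ranked 7th of 8524 genes but did not pass, with a Benjamini-Hochberg adjusted p of 0.0843 in limma.

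Of the 6 members tested in the Cxcr5 comparison 0 passed and 1, Bcl2a1b, had an unadjusted p under 0.05, against a background of 0.0469% of genes called and 682 genes with such a p. Over 10 alternative settings its difference stayed between 1.07 and 2.38 and its adjusted p between 0.0666 and 0.970. Mcl1 was lower with Cxcr5 in 4 of 4 runs without passing, with mean log2 values of 1.47 in Cxcr5-positive and 2.08 in Cxcr5-negative April cells, and 0.83 in Cxcr5-positive and 1.5 in Cxcr5-negative March cells (-0.64 ± 0.41, adjusted p 0.773 in limma). Bcl2l1, Bcl2l11, Bax and Bid changed sign between captures. Genes that passed were Ctsb, a lysosomal protease (2.56 ± 0.55), P4hb, an endoplasmic reticulum protein-folding enzyme (2.16 ± 0.48), S100a11, a calcium-binding protein (2.47 ± 0.55; 0.48 in April and 4.46 in March), and the T cell receptor segment Traj23 (2.12 ± 0.48), all higher with Cxcr5. No gene passed (0 called) without the Mar1 cells, without the block, with runs as blocks or with averaged linear values. In the fit as reported the limma prior degrees of freedom were infinite. Each SE then comes from spread pooled over all genes, not from a gene's own spread between captures, which was wide for S100a11. The median number of genes at a linear value of 1 or more was 3364 in Cxcr5-positive and 3050 in Cxcr5-negative April cells, and 3352.5 in Cxcr5-positive and 3216 in Cxcr5-negative March cells. The median summed level of the 5 CD4 T cell markers was 6229 in Cxcr5-positive and 6080 in Cxcr5-negative April cells, and 4776 in Cxcr5-positive and 3727 in Cxcr5-negative March cells. Their part in the Bcl2a1b difference was not tested. The median balance was 1.76 in Cxcr5-positive and 2.42 in Cxcr5-negative April cells, and 0.41 in Cxcr5-positive and 0.32 in Cxcr5-negative March cells.

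Klf2 encodes a transcription factor of quiescent, recirculating T cells. Cells with it had less Bcl2a1b: the mean log2 value was 2.57 in April (26 cells) and 1.14 in March (27 cells), against 4.49 in April (70 cells) and 3.17 in March (55 cells) for Klf2-negative cells. The difference was negative in all runs, -0.97 in Apr13, -2.84 in Apr21, -2.48 in Mar1 and -1.88 in Mar17. In April, 42.3% of cells with Klf2 and 57.1% of cells without it held Bcl2a1b. In March the shares were 18.5% with Klf2 and 43.6% without. With Klf2-positive taken as any value above 0 the differences were -1.74 in April and -2.0 in March. Of all 8524 genes, 0% passed in this comparison, with 574 at an unadjusted p under 0.05 in limma.

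The other members were mixed with Klf2. Of all 7 members, Bcl2a1b included, 4 were lower with Klf2 in both captures and 0 were higher in both. Of all 8524 genes, 51.3% had the same sign in both captures. None of this was tested. Bcl2 was lower in Klf2-positive cells in all 4 runs, by a small amount (-0.32 in April and -0.53 in March). Bax had mean log2 values of 0.38 in Klf2-positive and 1.93 in Klf2-negative April cells, but in March 1.73 in cells with and 1.21 in cells without Klf2, so the captures had opposite signs. Bcl2l11 and Bid were lower with Klf2 in both captures, by 0.60 and 0.04 for Bcl2l11 (April and March) and by 0.23 and 0.16 for Bid. The median balance was 2.41 in Klf2-positive and 2.16 in Klf2-negative April cells. In March it was -0.78 in cells with and 1.5 in cells without Klf2.

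**Figure D4:**
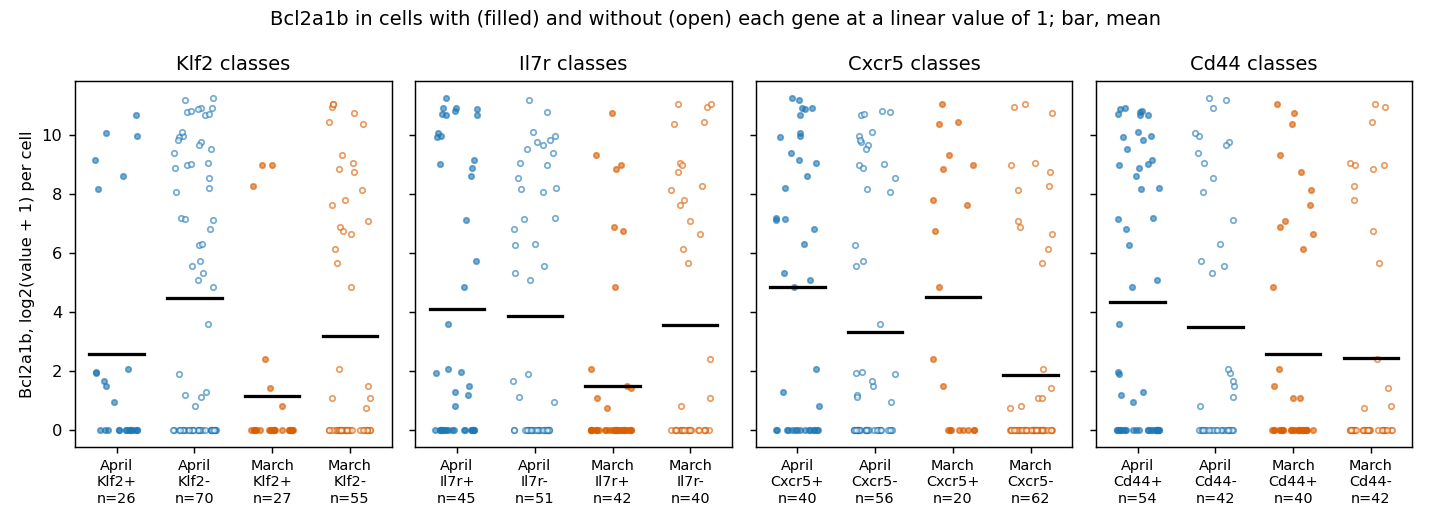
Bcl2a1b in single cells, as log2(value + 1), in cells with (filled points) and without (open points) each of Klf2, Il7r, Cxcr5 and Cd44 at a linear value of at least 1, by capture; bars are means. The mean is lower with Klf2 and higher with Cxcr5 in both captures, and every class holds cells at 0 and cells above 8.

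Il7r encodes the interleukin-7 receptor alpha chain. Bcl2a1b did not differ by Il7r in the same way in the 2 captures. It averaged 4.10 in Il7r-positive (45 cells) and 3.85 in Il7r-negative (51 cells) April cells, and 1.5 in Il7r-positive (42 cells) and 3.56 in Il7r-negative (40 cells) March cells. The 2 April runs gave small positive differences (0.37 in Apr13 and 0.04 in Apr21) and the 2 March runs negative ones (-1.44 in Mar1 and -2.34 in Mar17). Over both captures the difference was -0.90 ± 0.54 (adjusted p 0.914 in limma). Of the 6 members tested 0 passed and 0 had an unadjusted p under 0.05, in a comparison where 0% of genes passed and 442 had such a p. Bcl2, which interleukin-7 is known to maintain, was lower with Il7r in all 4 runs, with mean log2 values of 0.06 in Il7r-positive and 0.44 in Il7r-negative April cells, and 0.61 in Il7r-positive and 0.92 in Il7r-negative March cells. That direction depended on the presence level: with Il7r-positive taken as any value above 0 the Bcl2 difference was 0.335. That setting left only 8 Il7r-negative cells in April and 6 in March, so its value rests on few cells. The rho of Bcl2 with Il7r was 0.052 in April and -0.035 in March. Bcl2 was too scarce to test. It was present in 1 of 45 Il7r-positive and 5 of 51 Il7r-negative April cells. In March it was present in 4 of 42 Il7r-positive and 7 of 40 Il7r-negative cells. Bcl2l11 differed by 0.38 ± 0.26 (adjusted p 0.923 in limma), a value that rested on 1 small run: it was -0.096 in Apr13, 0.38 in Apr21, 2.02 in Mar1 and 0.050 in Mar17, and 0.094 over both captures without the Mar1 cells. The median balance was 2.14 in Il7r-positive and 2.21 in Il7r-negative April cells, and -0.38 in Il7r-positive and 1.90 in Il7r-negative March cells.

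Cd44 encodes an adhesion receptor of antigen-experienced T cells. Mcl1 was the member that stood out here, at 1.29 in Cd44-positive (54 cells) and 2.51 in Cd44-negative (42 cells) April cells, and 1.03 in Cd44-positive (40 cells) and 1.64 in Cd44-negative (42 cells) March cells. It was lower with Cd44 in 4 of 4 runs (range -1.91 to -0.35), but the difference of -0.92 ± 0.38 did not pass (adjusted p 0.476 in limma). Bcl2a1b averaged 4.33 in Cd44-positive and 3.5 in Cd44-negative April cells, and 2.58 in Cd44-positive and 2.43 in Cd44-negative March cells (0.49 ± 0.47, adjusted p 0.836 in limma). Its runs went both ways, at -1.26 in Apr13, 2.97 in Apr21, -1.13 in Mar1 and 0.71 in Mar17. Bax was present in 40.7% of Cd44-positive and 11.9% of Cd44-negative April cells, and in 27.5% of Cd44-positive and 26.2% of Cd44-negative March cells (0.54 ± 0.36, adjusted p 0.745 in limma). Of the 6 members tested 0 passed and 1 had an unadjusted p under 0.05, with 0.0117% of genes called, which was Stat4 alone (1.87 ± 0.38), and 701 genes at such a p. Stat4 encodes a signal transducer of interleukin-12, and 0 genes passed in 7 alternatives, among them the fits without the block and without the mitochondrial cells. Genes at a linear value of 1 or more numbered 3420 in Cd44-positive and 2962.5 in Cd44-negative April cells, and 3356 in Cd44-positive and 3154 in Cd44-negative March cells (medians); their part in these differences was not tested. The median balance was 1.59 in Cd44-positive and 2.61 in Cd44-negative April cells, and 0.26 in Cd44-positive and 0.95 in Cd44-negative March cells.

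**Figure D5:**
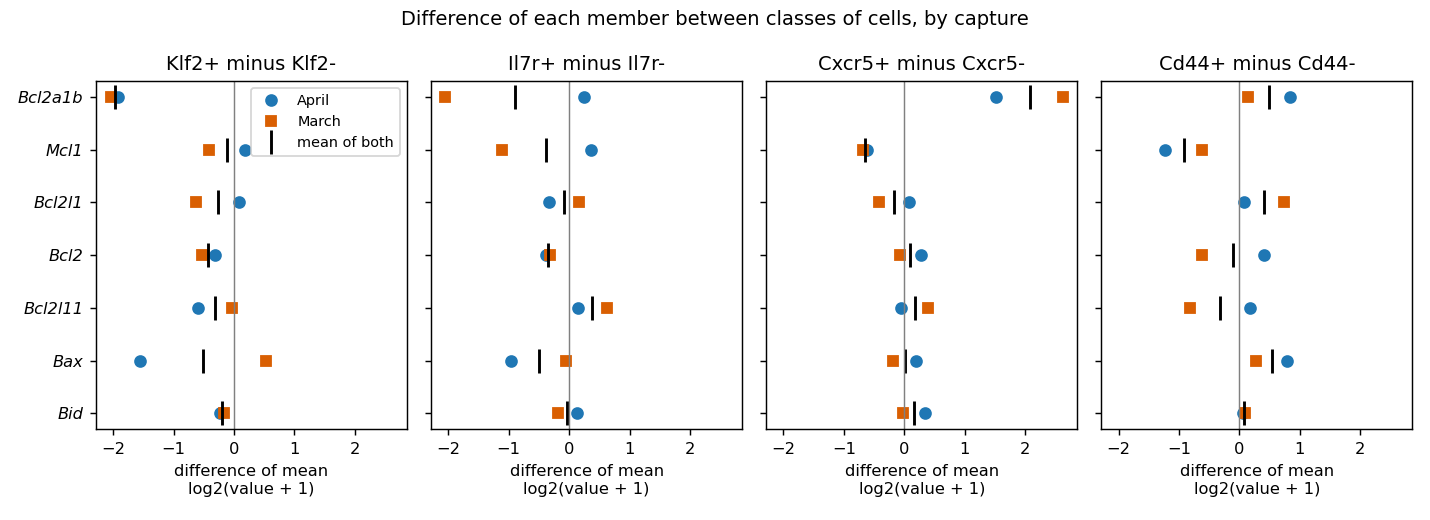
Difference in mean log2(value + 1) of each member, positive minus negative cells, for classes by Klf2, Il7r, Cxcr5 and Cd44; circles are April, squares March, black ticks their mean. Bcl2a1b is near -2 for Klf2 in both captures and between 1.52 and 2.63 for Cxcr5, and has opposite signs for Il7r.

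Cells with Bcl2a1b were then compared with cells without it, leaving Bcl2a1b itself out. Of the 5 other members tested 0 passed, where 0% of 8524 genes passed and 771 had an unadjusted p under 0.05; Bid and Bax were the 2 members with such a p. Bid averaged 0.80 in Bcl2a1b-positive and 0.08 in Bcl2a1b-negative April cells, and 1.32 in Bcl2a1b-positive and 0.70 in Bcl2a1b-negative March cells (0.67 ± 0.23, adjusted p 0.479 in limma). Bax averaged 1.99 in Bcl2a1b-positive and 0.97 in Bcl2a1b-negative April cells, and 1.74 in Bcl2a1b-positive and 1.19 in Bcl2a1b-negative March cells (0.78 ± 0.34, adjusted p 0.530 in limma). Pro-survival Mcl1 was also higher in both captures (0.56 ± 0.35, adjusted p 0.668 in limma). The members' median difference was 0.40, beside 0.13 for all genes, of which 65.9% were higher in Bcl2a1b-positive cells. Bcl2a1b-positive cells also had more genes above 0, a median of 5081 against 4878 in Bcl2a1b-negative April cells and 5539 against 5158 in Bcl2a1b-negative March cells, and a higher median summed level of the 5 CD4 T cell markers (6272 against 5692 in April, 5293 against 3277 in March). Their part in these differences was not tested.

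The genes with the smallest p in that comparison, none of which passed, were as follows. Higher with Bcl2a1b were Actg1, a cytoplasmic actin (1.71 ± 0.27), Cox4i1, a subunit of cytochrome c oxidase (2.12 ± 0.38), Psmd6, a proteasome subunit (2.06 ± 0.38), and Ppt1, a lysosomal thioesterase (2.05 ± 0.39), each with an adjusted p of 0.314 in limma. Lower were Satb1, a chromatin organizer of T cell development (-2.13 ± 0.44), Pitpnc1 (-1.67 ± 0.44) and Ifi203 (-1.62 ± 0.44), with adjusted p between 0.314 and 0.431 in limma. Klf2 stood at -1.37, which is the Klf2 contrast seen from Bcl2a1b and is given with no test.

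Actg1, Cox4i1, Psmd6, Ppt1 and Satb1 passed once the 3 mitochondrial Mar1 cells, all of them Bcl2a1b-negative, were left out. The SE of these genes rose, from 0.27 to 0.38 for Actg1 and from 0.44 to 0.48 for Satb1. The limma prior degrees of freedom went from 9.21 to infinite, so the SE and adjusted p below rest on spread pooled over all genes. Without those mitochondrial cells 50 genes (0.587%) were called, 47 higher and 3 lower with Bcl2a1b. Klf2 was 1 of the 3 and is not read as a result, since Bcl2a1b was chosen on it. Each of the 50 had the same sign in both captures, and 45 of them were among the 100 smallest p with all cells. The 50 were picked by p from these same captures, and both fits shared all but 3 cells, so neither count is separate support. The differences of the 50 moved by 0.165 at most. Without all Mar1 cells 4 genes passed. Among the 50, Satb1 had mean log2 values of 2.86 in Bcl2a1b-positive and 4.86 in Bcl2a1b-negative April cells, and 3.30 in Bcl2a1b-positive and 5.85 in Bcl2a1b-negative March cells. The costimulatory receptor gene Icos averaged 7.22 in Bcl2a1b-positive and 5.09 in Bcl2a1b-negative April cells, and 5.80 in Bcl2a1b-positive and 3.75 in Bcl2a1b-negative March cells (2.09 ± 0.49, adjusted p 0.0120 in limma). Sh2d1a, the SAP adaptor needed for follicular helper function, differed by 2.05 ± 0.49 (adjusted p 0.0126 in limma), Batf, an AP-1 factor of activated T cells, by 1.62 ± 0.43 (0.0338), the cell-cycle kinase gene Cdk4 by 1.95 ± 0.45 (0.0082) and the necroptosis kinase gene Ripk3 by 1.53 ± 0.30 (0.0016). Sh2d1a was present in 90.2% of Bcl2a1b-positive and 68.9% of Bcl2a1b-negative April cells. In March its shares were near equal, 65.5% of Bcl2a1b-positive and 66.0% of Bcl2a1b-negative cells. Trac, the constant segment of the T cell receptor alpha chain, was higher by 0.70 in April and 2.85 in March. The genes named here do not sum up the 50. Also among them were the respiratory chain genes Ndufs5, Ndufv2, Cox5a and Cox7a2 and the mitochondrial ribosomal protein genes Mrpl15 and Mrpl18. None of the other members was among the 50.

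Likeness over single cells was also measured without classes. The genes whose level ran most like that of Bcl2a1b, by the mean over captures of Spearman rho among 4111 genes present in at least 25% of cells of both captures, were Cdk4 (0.307), Cd82 (0.292), Atp5k (0.286), Eif5a (0.283) and Dync1li1 (0.279). The 100th gene on that list had 0.194, so the leaders did not stand far apart. For Bcl2 they were the ribosomal protein gene Rpl10 (0.316), Cndp1 (0.273), the apoptosis inhibitor gene Birc3 (0.258), Adprm (0.253) and Pigx (0.251), with 0.169 for the 100th gene. Bcl2 was present in only 17 of 178 cells, so its rho values rank mostly zeros and values below 1. Bcl2a1b itself had a rho with Cxcr5 of 0.10 over 96 April and 0.35 over 82 March cells, with Klf2 of -0.17 and -0.28, with Il7r of 0.12 and -0.30, and with Cd44 of -0.03 and 0.05, in April and March in each case. Cells of a capture share their preparation and depth, and no test was made.

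The wider death pathway was followed through 80 further genes. Other BCL2-family genes were scarce, as 10 of 17 were matched and their median was present in 8.15% of cells; the exception was Bnip3l, a mitophagy receptor, present in 63.5%. Executioner genes were more common: all 22 apoptosome and caspase genes were matched, with a median of 25% and Dffa, an inhibitor of the apoptotic nuclease, at 68.5%. Among the 10 death receptor genes Cflar, which encodes the caspase-8 inhibitor c-FLIP, was present in 88.2% of cells. Of the 31 upstream regulators Il2rg, the common cytokine receptor chain, was present in 100% of cells.

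Of the 58 pathway genes tested, 0 passed in any class comparison, in either direction. In Bcl2a1b-positive cells 39 of the 58 were higher and 19 lower, with a median difference of 0.23 beside 0.13 for all genes. The smallest p belonged to the NF-kappaB subunit genes Rela (1.14 ± 0.34) and Nfkb1 (1.02 ± 0.36), with adjusted p of 0.442 and 0.488 in limma. Rela averaged 2.59 in Bcl2a1b-positive and 1.35 in Bcl2a1b-negative April cells, and 1.82 in Bcl2a1b-positive and 0.77 in Bcl2a1b-negative March cells. Nfkb1 averaged 2.56 in Bcl2a1b-positive and 1.27 in Bcl2a1b-negative April cells, and 1.87 in Bcl2a1b-positive and 1.13 in Bcl2a1b-negative March cells. The mitochondrial channel gene Vdac2 followed (1.07 ± 0.42); on the lower side were Casp8 (-0.83 ± 0.39), Jak1 (-0.55 ± 0.40) and Bcl2l12 (-0.29 ± 0.24).

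In the Cxcr5 comparison 39 of the 58 pathway genes were higher and 19 lower, with a median of 0.19 beside 0.10 for all genes. Il2rg was higher by 1.53 ± 0.48, Tnfrsf4, the OX40 receptor, by 1.24 ± 0.52 and Stat5a by 0.79 ± 0.35, none past the threshold (adjusted p 0.297 to 0.506 in limma), while Rel, Bcl2l12 and Rela were lower by 0.56, 0.35 and 0.54. With Il7r, 29 of 58 were higher and 29 lower; Stat5b, which carries interleukin-7 signals, was higher by 1.02 ± 0.30, Cd28 by 1.07 ± 0.46 and Traf1 by 0.75 ± 0.34, and Il2rb, Bcl2l12 and Rela were lower by 0.74, 0.55 and 0.77 (adjusted p 0.910 in limma for each). With Cd44, 35 of 58 were higher and 23 lower; Foxo1 was higher by 1.29 ± 0.46, Nfkb1 by 1.0 ± 0.38 and the TRAIL gene Tnfsf10 by 0.62 ± 0.26, and Myc, Nfkbia and Traf1 were lower by 0.60, 0.86 and 0.60 (adjusted p 0.412 to 0.726 in limma). In Klf2-positive cells 22 of 58 were higher and 36 lower, with a median of -0.04 beside -0.03 for all genes.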

How the data were processed

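Single-cell transcriptomes of 178 cells from 2 captures were read from 1 deposited table of log2 values. The unit was read from the values: undoing the log2 with a pseudocount of 1 gave sums of 892206 to 979888 per cell in the authors' deposited table. Per the submitters' processing notes the build was mm10; the aligner is not given in the sources used here, nor is the counting tool, and depth per cell is unknown. Cells were assigned to captures by column names, with 0 columns unmapped. Ensembl IDs were matched to symbols for 12163 genes, not for 269; coordinates and sequences come from GENCODE vM21.

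Classes were cells with a gene at a linear value of at least 1 against the others. Mean log2 values per capture and class (4 pseudobulk libraries) were fitted with limma 3.58.1 in R 4.3.3, with a mean-variance trend, over 8524 genes at 1 or more in at least 10% of cells, two-sided, with Benjamini-Hochberg adjustment at 0.05. The capture was the block, since both classes come from the same pool, which leaves 1 residual degree of freedom. Differences are on the log2(value + 1) scale with zeros included and understate changes of low genes. The fit was also tried on the real cells put into classes at random, with equal shifts planted in both captures. It recovered most planted shifts but also called unshifted genes above the nominal rate, so single calls are weak. The planted shifts were larger than most differences of the members, so recovery of smaller ones was not tested. Shares carry exact Clopper-Pearson 95% intervals (SciPy 1.17.1, Python 3.11.15). No doublet caller was run and no cell was left out of the values reported first.

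The members, lists, markers and tests were chosen with earlier results of these data known. Named were all members, Klf2, Il7r, Cxcr5 and Cd44, up to 3 pathway genes per direction with the smallest p in each tested comparison, genes past the threshold, and, with Bcl2a1b, up to 4 genes per direction of smallest p. The 5 genes most like Bcl2a1b and Bcl2 were also named. Ctsb, P4hb, S100a11, Traj23, Stat4 and those named among the 50 genes were chosen after their values were seen. Alternatives covered the presence level, pseudocount, scale, filter, block, mitochondrial cells, normalization and each capture; leaving out Mar1 was added after seeing the data.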

Additional observations from a re-analysis of the deposited data

How the results depend on the processing

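Among the alternative values, 375 kept their direction and their side of the threshold or stayed within the spread, 47 moved and 25, all of tested members, changed sign. With 1 capture left out, a value lies within the spread of the 2 captures by construction. Such values are counted among the 375 unless a tested member changed sign, so they do not measure robustness. No member was called under any alternative of the Il7r, Cxcr5, Cd44 and Bcl2a1b comparisons. Counts of genes called: with Il7r 0, but 2 at any value above 0 and 1 without Mar1; with Cxcr5 4, but 1 at any value above 0, 2 after quantile normalization and 0 with averaged linear values, with runs as blocks or without Mar1; with Cd44 1, but 8 without Mar1 and 0 with pseudocount 10, averaged linear values, no filter, runs as blocks, no mitochondrial cells or quantile normalization; with Bcl2a1b 0, but 1 with no filter, 50 without mitochondrial cells and 4 without Mar1; with Klf2 0, but 12 with pseudocount 10 and 1 after quantile normalization. Without the replicate block that pairs the classes of a capture, the Cxcr5 and Cd44 counts were 0. The Cd44 class at any value above 0 was not run, as it left under 5 negative cells in a capture. The limma prior degrees of freedom were 9.21 for the Bcl2a1b classes with all cells and infinite without the mitochondrial cells. They were also infinite in the Cxcr5 comparison as reported, and its 0 counts came with finite ones (7.13 to 13.7).

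Signs changed as follows. For Il7r, Bcl2a1b was 0.27 and Bid 0.62 at any value above 0, Bcl2l1 1.12 with averaged linear values and Bid 0.024 with runs as blocks. At any value above 0 the Il7r-negative class held only 8 April and 6 March cells. For Cxcr5, Mcl1 and Bcl2l1 were 0.14 and 0.14 at any value above 0, Bcl2l11 -0.058 with averaged linear values and -0.25 without Mar1, and Bax -0.066 with pseudocount 10, -0.030 without mitochondrial cells and -0.15 after quantile normalization. For Cd44, Bid was -0.021 with pseudocount 10, -0.077 with averaged linear values and -0.014 after quantile normalization. For Bcl2a1b classes, Bcl2l11 was -0.55 with averaged linear values. With 1 capture left out at a time, values ranged from -2.05 to 0.25 (Bcl2a1b), -1.11 to 0.36 (Mcl1), -0.33 to 0.16 (Bcl2l1) and -0.19 to 0.13 (Bid) for Il7r; from -0.41 to 0.073 (Bcl2l1), -0.051 to 0.39 (Bcl2l11), -0.18 to 0.19 (Bax) and -0.013 to 0.34 (Bid) for Cxcr5; from -0.82 to 0.17 (Bcl2l11) for Cd44; and from -0.47 to 0.85 (Bcl2l1) for Bcl2a1b. Differences given without a test changed sign too: Bcl2 was 0.335 for Il7r at any value above 0, and with 1 capture left out ranged from -0.067 to 0.27 for Cxcr5 and -0.62 to 0.41 for Cd44, while for Klf2 Mcl1 ranged from -0.42 to 0.18, Bcl2l1 from -0.62 to 0.087 and Bax from -1.55 to 0.52. The causes were not tested.

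Shares depend on the presence level. As the mean of both captures, any value above 0 gave 46.5% for Bcl2a1b, 33.7% for Bcl2, 60.9% for Mcl1, 32.1% for Bcl2l1, 65.3% for Bcl2l11, 34.3% for Bax and 26.8% for Bid, and a linear value of 10 gave 35.9% for Bcl2a1b, 18.9% for Mcl1, 3.82% for Bcl2l1, 6.35% for Bcl2l11 and 15.1% for Bax. The balance without Bcl2a1b was -0.037. With no counts and 2 captures, depth and the spread between mice cannot be assessed.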
